A study of Mus musculus with 16 samples.

Results

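The collagen genes form the family described here, chosen as all array probes that are not controls and whose gene name in the deposited files is Col, a number, a and a number. The rule took 80 probes of 41 genes, out of 41174 probes and 27729 gene names on the array. The probe with the highest mean over the 16 arrays stood for each gene, and 38 of the 41 genes were measured well above background on at least 4 arrays. Those 38 are among 21631 genes tested. Col10a1, the collagen of growth-plate cartilage, Col19a1 and Col28a1 did not pass, since each was well above background on 1 of 16 arrays. Of the 38, 36 were above background on every array, and Col9a1 on 13 and Col9a3 on 15 of them. Col29a1 is the array's older name of Col6a5. A further 3 genes that are collagens by current names carry older names in the files and are not members.

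Whole lungs of BALB/c mice, an inbred strain, were profiled to ask how the newborn lung responds to ozone, an oxidant air pollutant. The exposure, given once at an age of 3 days, lasted 3 h and used either 1000 ppb of ozone or filtered air. RNA came from lungs collected at 6 h or at 24 h past its end. The groups were ozone at 6 h, air at 6 h, ozone at 24 h and air at 24 h, each with 4 arrays from 4 mice picked at random out of 6 to 8. Controls were littermates of the same age, pups stayed with a foster dam while exposed, and each time point was an experiment of its own with its own air controls. The labels name no genetic change in any group. Whole lung mixes many cell types, so fewer cells of a type and less RNA per cell cannot be told apart.

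Collagens are triple helices of 3 chains in which glycine recurs at a fixed short interval. Fibrillar collagens, chiefly types I and III, give lung walls, vessels and airways their tensile strength, and type IV collagen forms the network of basement membranes under epithelium and around capillaries. Fibril-associated and type VI collagens link fibrils to one another and to cells, while transmembrane collagens are anchored in the plasma membrane and can shed their extracellular part. In the newborn mouse, airspaces are still being divided, and matrix is laid down in the growing septa.

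The signature of the family can be read in a few of the probes. Probes are 60 bases long, and 3 of the 80 probes spelled a glycine codon (GGN) at 1 of every 3 codons along 1 reading frame, which is the coding pattern of the triple helix. Those 3 are shown because they display the repeat that defines the members, with glycine codons in capitals. The fourth is the main probe of Col25a1, on which the largest ozone difference of the family rests, shown without capitals.
Col5a1: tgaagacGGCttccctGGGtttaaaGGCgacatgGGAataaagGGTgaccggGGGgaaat
Col11a2: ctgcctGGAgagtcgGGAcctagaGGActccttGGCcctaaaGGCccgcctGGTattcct
Col5a3: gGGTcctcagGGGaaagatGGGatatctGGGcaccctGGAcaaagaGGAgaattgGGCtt
Col25a1: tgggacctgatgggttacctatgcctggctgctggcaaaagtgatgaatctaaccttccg
The Col5a1 probe has 6 such codons and lies at chr2:27842243-27844666 on the plus strand (mm9, the array design's mouse build). The Col11a2 probe has 6 and lies at chr17:34189287-34189453 on the plus strand, and the Col5a3 probe has 7 and lies at chr9:20590066-20590795 on the minus strand. None of the 3 is the brightest probe of its gene. The Col25a1 probe lies at chr3:130292954-130298036, plus strand, over a span of 5083 bases, so its 60 bases come from more than 1 exon. In all, 12 of the 80 probes span more than their own length. Exon and UTR annotation of the mm9 positions was not used here.

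Promoters of the 3 members that differed after ozone are shown next, as the 250 bases before the RefSeq gene start (GRCm38.p6), with motif matches in capitals.
Col25a1: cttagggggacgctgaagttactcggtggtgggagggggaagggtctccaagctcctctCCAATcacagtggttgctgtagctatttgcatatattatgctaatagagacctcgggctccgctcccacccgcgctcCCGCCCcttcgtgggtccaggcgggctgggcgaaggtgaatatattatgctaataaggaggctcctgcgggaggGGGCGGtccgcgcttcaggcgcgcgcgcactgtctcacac
Col17a1: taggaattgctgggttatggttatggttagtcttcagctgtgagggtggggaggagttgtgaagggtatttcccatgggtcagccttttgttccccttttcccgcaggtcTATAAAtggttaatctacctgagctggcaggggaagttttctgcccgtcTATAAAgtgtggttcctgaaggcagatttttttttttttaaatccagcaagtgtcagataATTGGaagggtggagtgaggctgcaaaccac
Col23a1: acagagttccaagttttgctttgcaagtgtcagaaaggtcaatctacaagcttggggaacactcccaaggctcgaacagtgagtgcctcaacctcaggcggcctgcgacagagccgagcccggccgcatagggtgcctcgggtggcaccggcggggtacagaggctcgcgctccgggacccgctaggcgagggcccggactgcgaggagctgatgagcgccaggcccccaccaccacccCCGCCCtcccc
They lie at chr3:130180595-130180844 (plus strand), chr19:47692043-47692292 (minus strand) and chr11:51289670-51289919 (plus strand). Motifs were searched on both strands by their letters. These were CCAAT for the CCAAT box, GGGCGG for the GC box, TATAAA for the TATA box, TGANTCA for the AP-1 site and TGACNNNGC for the core of the antioxidant response element, and the last pair can overlap. Col25a1 held 1 CCAAT and 2 GC boxes, Col17a1 held 2 TATA boxes and 1 CCAAT, and Col23a1 held 1 GC box. None of the 3 windows held the AP-1 or antioxidant letters. Sequences matched for 33 of the 41 members, with 36 windows. Of these 36, 55.6% held a GC box, against 32.7% of all 32851 windows. A CCAAT box was in 33.3% of member windows and 33.8% of all, and a TATA box in 13.9% and 12.4%. The AP-1 letters were in 2.78% and 6.75%, and the antioxidant core in 16.7% and 10.2%. A match describes the letters only.

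Each level is a log2 ratio of a spot's signal to the 75th percentile of signals on its own array, so a level of 0 equals that percentile. Levels of different probes are not comparable. The 75th percentile lay between 574 and 946 intensity units, and 65.0% to 83.9% of probes were well above background per array, the highest share on ozone array 3 of 6 h. No collagen spot was saturated. Pairs of arrays from the same group correlated at 0.969 to 0.995 over genes, which are not independent replicates. The 8 lung epithelial markers checked, Sftpc among them, were above background on all 16 arrays. Differences were tested with limma over all 21631 genes, and "passed" below means a Benjamini-Hochberg adjusted p under 0.05, with errors of differences given as standard errors (SE) and n = 4 per group. The arrays of each time point fill 2 slides, with replicates 1 and 2 of both groups on the first and 3 and 4 on the other.

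Among the 4 transmembrane collagens, Col25a1, Col17a1 and Col23a1 were higher in ozone lungs 6 h after exposure, and Col13a1 did not pass. These were the 3 collagens that passed at 6 h among 38 tested, all of them higher. Across all genes at 6 h, 4.48% passed, 1.36% as higher (295 genes) and 3.11% as lower (673). That split was 37 against 872 with arrays centred on the median and 152 against 801 with normexp background correction. The median change over the 4 was 0.45 on the log2 scale, against 0.13 over the 38 collagens and 0.07 over all genes. At 24 h, 1 collagen passed, Col17a1 again, against 2.01% of all genes, 0.689% as higher (149) and 1.32% as lower (286). There the split was 46 against 210 with median centring and 328 against 326 with normexp. An unadjusted limma p under 0.05 was common, in 4540 of all 21631 genes at 6 h and 2878 at 24 h. The change of the ozone effect between times had one in 2704. Differences lay above 0 for 13277 genes at 6 h and 11884 at 24 h, and the change lay below 0 for 11902. These are the background for the unadjusted counts and counts of signs below.

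Col25a1 encodes a transmembrane collagen first found in amyloid plaques and required for motor nerves to innervate developing muscle. Its level was -1.97, -1.92, -2.20 and -2.07 on the air arrays of 6 h and -1.06, -1.07, -1.17 and -0.69 on the ozone arrays of 6 h. At 24 h it was -2.12, -2.18, -2.05 and -1.80 in air and -2.11, -2.35, -2.26 and -2.18 in ozone. The 4 ozone arrays of 6 h lie above every other array of the study, and the remaining 3 groups overlap. The difference at 6 h was 1.04 ± 0.12 (SE, log2, limma adjusted p = 0.000438), a 2.06-fold level and rank 3 by p among all genes. At 24 h it was -0.19 ± 0.12 (adjusted p = 0.561, 95% interval -0.44 to 0.06). The change of the ozone effect from 6 h to 24 h was -1.23 ± 0.17 (adjusted p = 0.0217), the smallest p of all genes for that test, which 0.0647% of genes passed, 0.0462% with a positive and 0.0185% with a negative change. Col25a1 was the 1 collagen of 38 among them. As each time point was an experiment of its own, time and experiment cannot be told apart in this change. The call of the change of effect was lost without air array 4 of 6 h, without ozone array 2 of 24 h and without air array 1 of 24 h (-1.26 to -1.19), and with median centring (-1.06), the mean of probes (-0.92) or the replicate number as a block.

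The 6 h difference of Col25a1 was present within each slide, and it passed without any 1 array, with values from 0.94 to 1.10. It passed under 14 of 15 other settings. The exception was the mean of the gene's probes, with 0.54 (adjusted p = 0.23). A second Col25a1 probe, above background on 11 arrays, gave 0.04 ± 0.49 at 6 h, and the remaining probe did not pass the background filter. Skeletal muscle markers, a tissue where the gene acts in development, had 6 of 7 differences above 0 at 6 h, with a median of 0.08. At 24 h 7 of 7 were below 0, with a median of -0.75, and the change of effect was also below 0 for 7 of 7, with a median of -0.89. In limma 0 of these markers passed in any of the 3 comparisons, where 0, 1 and 0 had an unadjusted p under 0.05. The log2 of their summed signal was 3.32 to 4.70 in air and 3.70 to 4.22 in ozone at 6 h, and 3.52 to 4.86 in air and 3.37 to 3.83 in ozone at 24 h. That sum leans on the brightest probe, that of Myh8. The part of these markers in the Col25a1 differences was not tested.

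**Figure D1:**
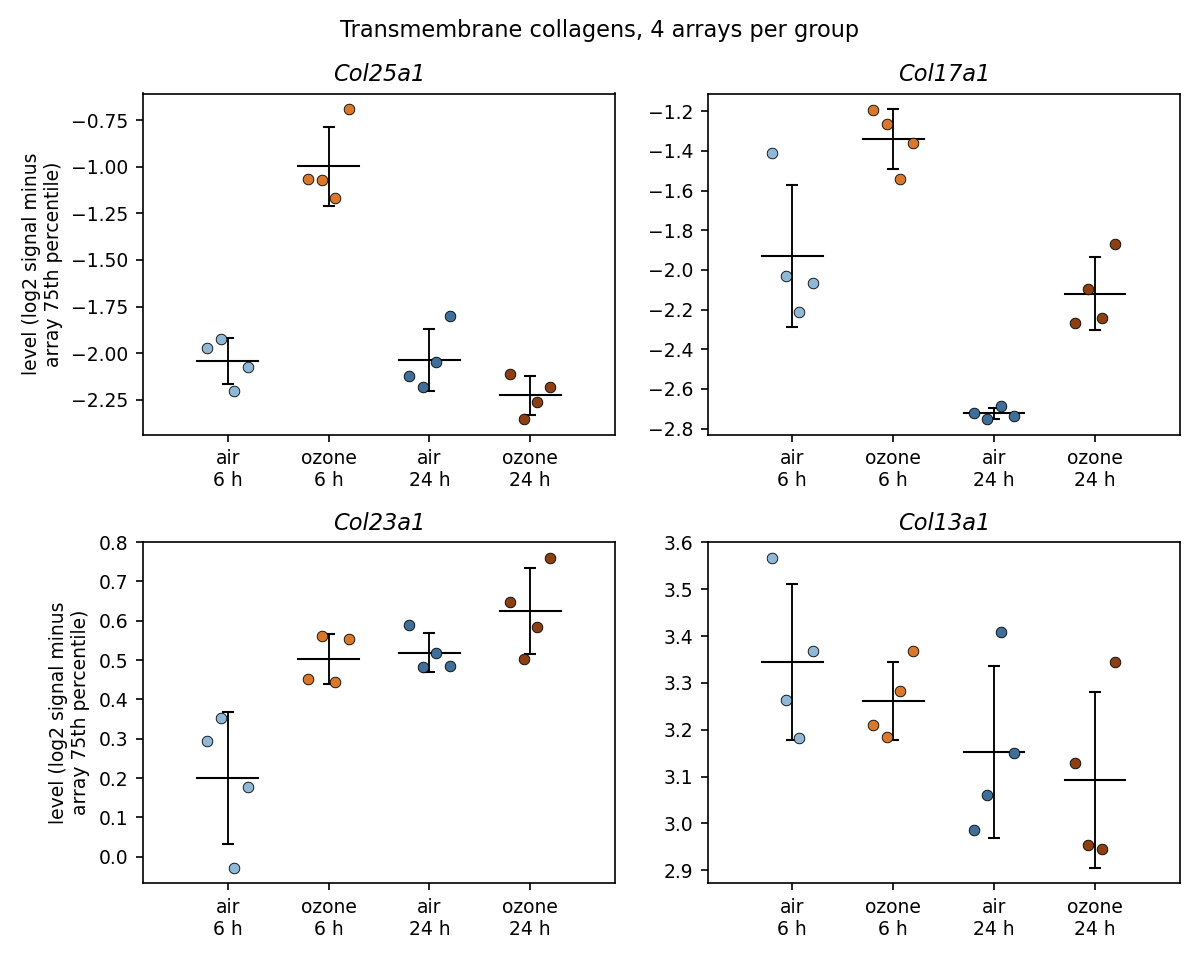
Levels of the 4 transmembrane collagens on each array (points, log2 of the signal minus the array's 75th percentile) in the 4 groups, with the mean (line) and SD (bar) of 4 arrays; vertical scales differ between panels. The 4 ozone arrays of 6 h stand above all others for Col25a1, from -1.17 to -0.69.

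Col17a1 encodes the hemidesmosome collagen (BP180) that fixes basal cells of stratified epithelium to the basement membrane. It read -1.41, -2.03, -2.21 and -2.07 in air and -1.19, -1.26, -1.54 and -1.36 in ozone at 6 h. At 24 h it read -2.72, -2.75, -2.69 and -2.74 in air and -2.27, -2.09, -2.24 and -1.87 in ozone. Air array 1 of 6 h reaches into the ozone range, whereas at 24 h each ozone array lies above each air array. The ozone difference was 0.59 ± 0.15 at 6 h (limma adjusted p = 0.0331) and 0.60 ± 0.15 at 24 h (adjusted p = 0.0425). The change of the effect between times was 0.01 ± 0.21, with a 95% interval of -0.43 to 0.46. A second Col17a1 probe, above background on 13 arrays, gave 1.29 ± 0.24 at 6 h (adjusted p = 0.0104 over probes) and 0.35 ± 0.24 at 24 h.

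The Col17a1 call held under 6 of 15 other settings at 6 h and 5 of 15 at 24 h. At 6 h it was lost without ozone array 1, 2 or 4 or air array 3 or 4 of 6 h, with values from 0.50 to 0.60. At 24 h it was lost without any 1 of the 8 arrays of 24 h, or ozone or air array 2 or 4 of 6 h, with values from 0.52 to 0.65. Normexp background correction moved the 24 h value to 0.05.

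Squamous and basal epithelia are the cells that carry hemidesmosomes. Of 6 of their markers that were measured, 6 had a positive difference at 6 h, 0 passed in limma, 4 had an unadjusted p under 0.05, and the median was 0.88. Over all 21631 genes at 6 h, 13277 had a positive difference and 4540 an unadjusted p under 0.05. The keratin gene Krt14 differed by 0.65 ± 0.19 (adjusted p = 0.0640) and Krt5 by 1.12 ± 0.55 (adjusted p = 0.254). The basal cell factor Trp63 differed by 1.17 ± 0.50 (adjusted p = 0.185) and was above background on 13 arrays. At 24 h the difference was positive for 5 and negative for 1, with a median of 0.33, 0 passed in limma and 1 had an unadjusted p under 0.05. Dsg3 and Sprr3, the remaining 2 of the 8 markers, were above background on 1 array each. The log2 of the summed signal of the 6 was 1.07 to 2.93 in air and 1.70 to 3.06 in ozone at 6 h, and 0.74 to 1.49 in air and 1.02 to 1.52 in ozone at 24 h. The part of these cells in the Col17a1 difference was not tested.

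Col23a1, a transmembrane collagen of epithelia, read 0.29, 0.35, -0.03 and 0.18 in air and 0.45, 0.56, 0.45 and 0.55 in ozone at 6 h. It read 0.59, 0.48, 0.52 and 0.49 in air and 0.65, 0.50, 0.58 and 0.76 in ozone at 24 h. The ozone arrays of 6 h lie above the air arrays of 6 h by a narrow gap, and overlap both groups of 24 h. The difference was 0.30 ± 0.08 at 6 h (limma adjusted p = 0.0444) and 0.11 ± 0.08 at 24 h (adjusted p = 0.686). The 6 h call held under 6 of 15 other settings and was lost without any ozone array of 6 h, air array 1, 3 or 4 of 6 h, any air array of 24 h or ozone array 3 of 24 h, with values from 0.23 to 0.34; median centring gave 0.14. Its other probes gave 0.24 ± 0.08 and 0.67 ± 0.30 at 6 h, and both had a negative sign at 24 h.

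Col13a1, a transmembrane collagen of cell adhesions and of the nerve-muscle junction, had group means of 3.35 ± 0.17 in air and 3.26 ± 0.08 in ozone at 6 h (SD, n = 4). At 24 h they were 3.15 ± 0.18 in air and 3.09 ± 0.19 in ozone. All 4 groups overlap. The ozone difference was -0.08 ± 0.11 at 6 h (limma adjusted p = 0.673, 95% interval -0.31 to 0.14) and -0.06 ± 0.11 at 24 h.

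None of the 11 fibrillar collagens passed at 6 h or at 24 h in limma; 1 had an unadjusted p under 0.05 at 6 h (Col11a2, higher) and 1 at 24 h (Col1a2, lower). With array weights, Col1a2 passed at 24 h (-0.38). The median ozone difference of the 11 was 0.10 at 6 h, with 9 of 11 above 0, beside 13277 of all 21631 genes. It was -0.07 with median centring, under which the all-gene median moved from 0.07 to -0.09. At 24 h the median was -0.11, beside 0.02 for all genes, and relative to all genes it was -0.14 in this fit, with median centring and with quantile normalization, and -0.0026 with normexp, under which the all-gene median moved from 0.02 to -0.13. The 95% intervals of the 11 differences ran from -0.36 to 0.64 at 6 h and from -0.66 to 0.48 at 24 h.

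Col1a1 and Col1a2 encode the chains of type I collagen, the main fibril of the lung. Col1a1 read 5.77, 5.49, 5.10 and 5.30 in air and 5.64, 5.53, 5.87 and 5.52 in ozone at 6 h, and 5.75, 5.64, 5.84 and 5.73 in air and 5.41, 5.46, 5.52 and 5.61 in ozone at 24 h. Col1a2 read 6.36, 6.11, 5.78 and 5.92 in air and 5.92, 6.16, 6.12 and 6.05 in ozone at 6 h, and 6.64, 6.69, 6.43 and 6.58 in air and 5.89, 6.38, 6.20 and 6.28 in ozone at 24 h. At 6 h the groups overlap for both chains, while at 24 h each ozone array lies below each air array for both. The 24 h differences were -0.24 ± 0.12 for Col1a1 (limma adjusted p = 0.400) and -0.40 ± 0.12 for Col1a2 (adjusted p = 0.120). Over all genes, 4.96% lay wholly below air at 24 h. The change of the ozone effect between times was -0.46 ± 0.17 and -0.42 ± 0.17 (adjusted p = 0.251 and 0.324).

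Col3a1, the type III chain of distensible tissue, differed by 0.05 ± 0.11 at 6 h and 0.04 ± 0.11 at 24 h, with group means of 5.59 ± 0.26 and 5.64 ± 0.07 (air, then ozone, SD) at 6 h and 6.10 ± 0.13 and 6.14 ± 0.04 at 24 h. Type V chains set the diameter of type I fibrils. Col5a1 differed by 0.22 ± 0.12 and -0.18 ± 0.12 at the 2 times, Col5a2 by 0.08 ± 0.10 and -0.12 ± 0.10, and Col5a3 by 0.10 ± 0.22 and -0.11 ± 0.22. At 24 h the 4 ozone arrays of Col5a1 lay below the 4 air arrays, as for the type I chains.

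Types II and XI form the fibrils of cartilage. Col2a1 differed by 0.10 ± 0.10 at 6 h and 0.03 ± 0.10 at 24 h, Col11a1 by 0.17 ± 0.18 and -0.16 ± 0.18, and Col11a2 by 0.34 ± 0.14 and 0.12 ± 0.14. Col24a1 and Col27a1, minor fibrillar collagens of skeleton, differed by -0.03 ± 0.15 and -0.10 ± 0.10 at 6 h and by 0.16 ± 0.15 and 0.08 ± 0.10 at 24 h. Of 7 measured cartilage markers, 0 passed at either time in limma, with 1 unadjusted p under 0.05 at 6 h (lower) and 0 at 24 h. The markers Acan, Sox9, Comp, Hapln1 and Cytl1 were above background on all 16 arrays and Snorc on 15. Ucma was above background on 8 arrays, Matn3 on 3, and Matn1 and Cnmd on none.

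The 6 type IV chains gave no call at either time in limma, with 1 unadjusted p under 0.05 each time (Col4a2 higher at 6 h, Col4a1 lower at 24 h). Their median was 0.09 at 6 h, with all 6 above 0 (as were 13277 of all 21631 genes), and -0.08 with median centring. At 24 h it was -0.09, with 3 of 6 above 0. Col4a1 and Col4a2, which together form the network of most basement membranes, differed by 0.22 ± 0.11 and 0.32 ± 0.13 at 6 h and by -0.26 ± 0.11 and -0.21 ± 0.13 at 24 h. Their change of effect between times was -0.48 ± 0.15 and -0.53 ± 0.19 (adjusted p = 0.209 and 0.248). Col4a3, Col4a4 and Col4a5, chains of the network of alveolar and glomerular basement membrane, differed by 0.00 ± 0.10, 0.01 ± 0.09 and 0.05 ± 0.10 at 6 h. At 24 h they differed by -0.19 ± 0.10, 0.09 ± 0.09 and 0.01 ± 0.10, and Col4a6 by 0.22 ± 0.22. The 95% intervals over the 6 chains ran from -0.34 to 0.60 at 6 h and from -0.49 to 0.68 at 24 h.

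The remaining measured collagens gave no call after ozone in limma. Differences of the 8 fibril-associated collagens ran from -0.02 to 0.47 at 6 h, with 3 unadjusted p values under 0.05 (Col9a2, Col20a1 and Col22a1), and from -0.03 to 0.27 at 24 h. At 6 h, 4540 of all 21631 genes had an unadjusted p under 0.05. The 4 type VI chains, which form beaded filaments around cells, ran from 0.05 to 0.21 at 6 h and from -0.31 to 0.08 at 24 h. Of the multiplexins, basement membrane collagens whose cores can be cut to endostatin-like fragments, Col18a1 differed by -0.38 ± 0.17 at 24 h (limma adjusted p = 0.322) and Col15a1 by -0.30 ± 0.19. In both, the 4 ozone arrays of 24 h lay below the 4 air arrays. Col18a1 passed at 24 h with array weights (-0.35) and in a fit of the 24 h arrays alone (-0.38). Col8a1, Col8a2 and Col7a1, the last a chain of anchoring fibrils under epithelium, ran from 0.14 to 0.26 at 6 h and from -0.03 to 0.09 at 24 h. Over the 38 members, 2 lay wholly above air at 6 h and 0 below, against 4.61% and 4.87% of all genes. At 24 h, 1 lay wholly above and 6 below, against 6.8% and 4.96%. Those 6 are Col1a1, Col1a2, Col5a1, Col6a1, Col15a1 and Col18a1, named after their values were seen.

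**Figure D2:**
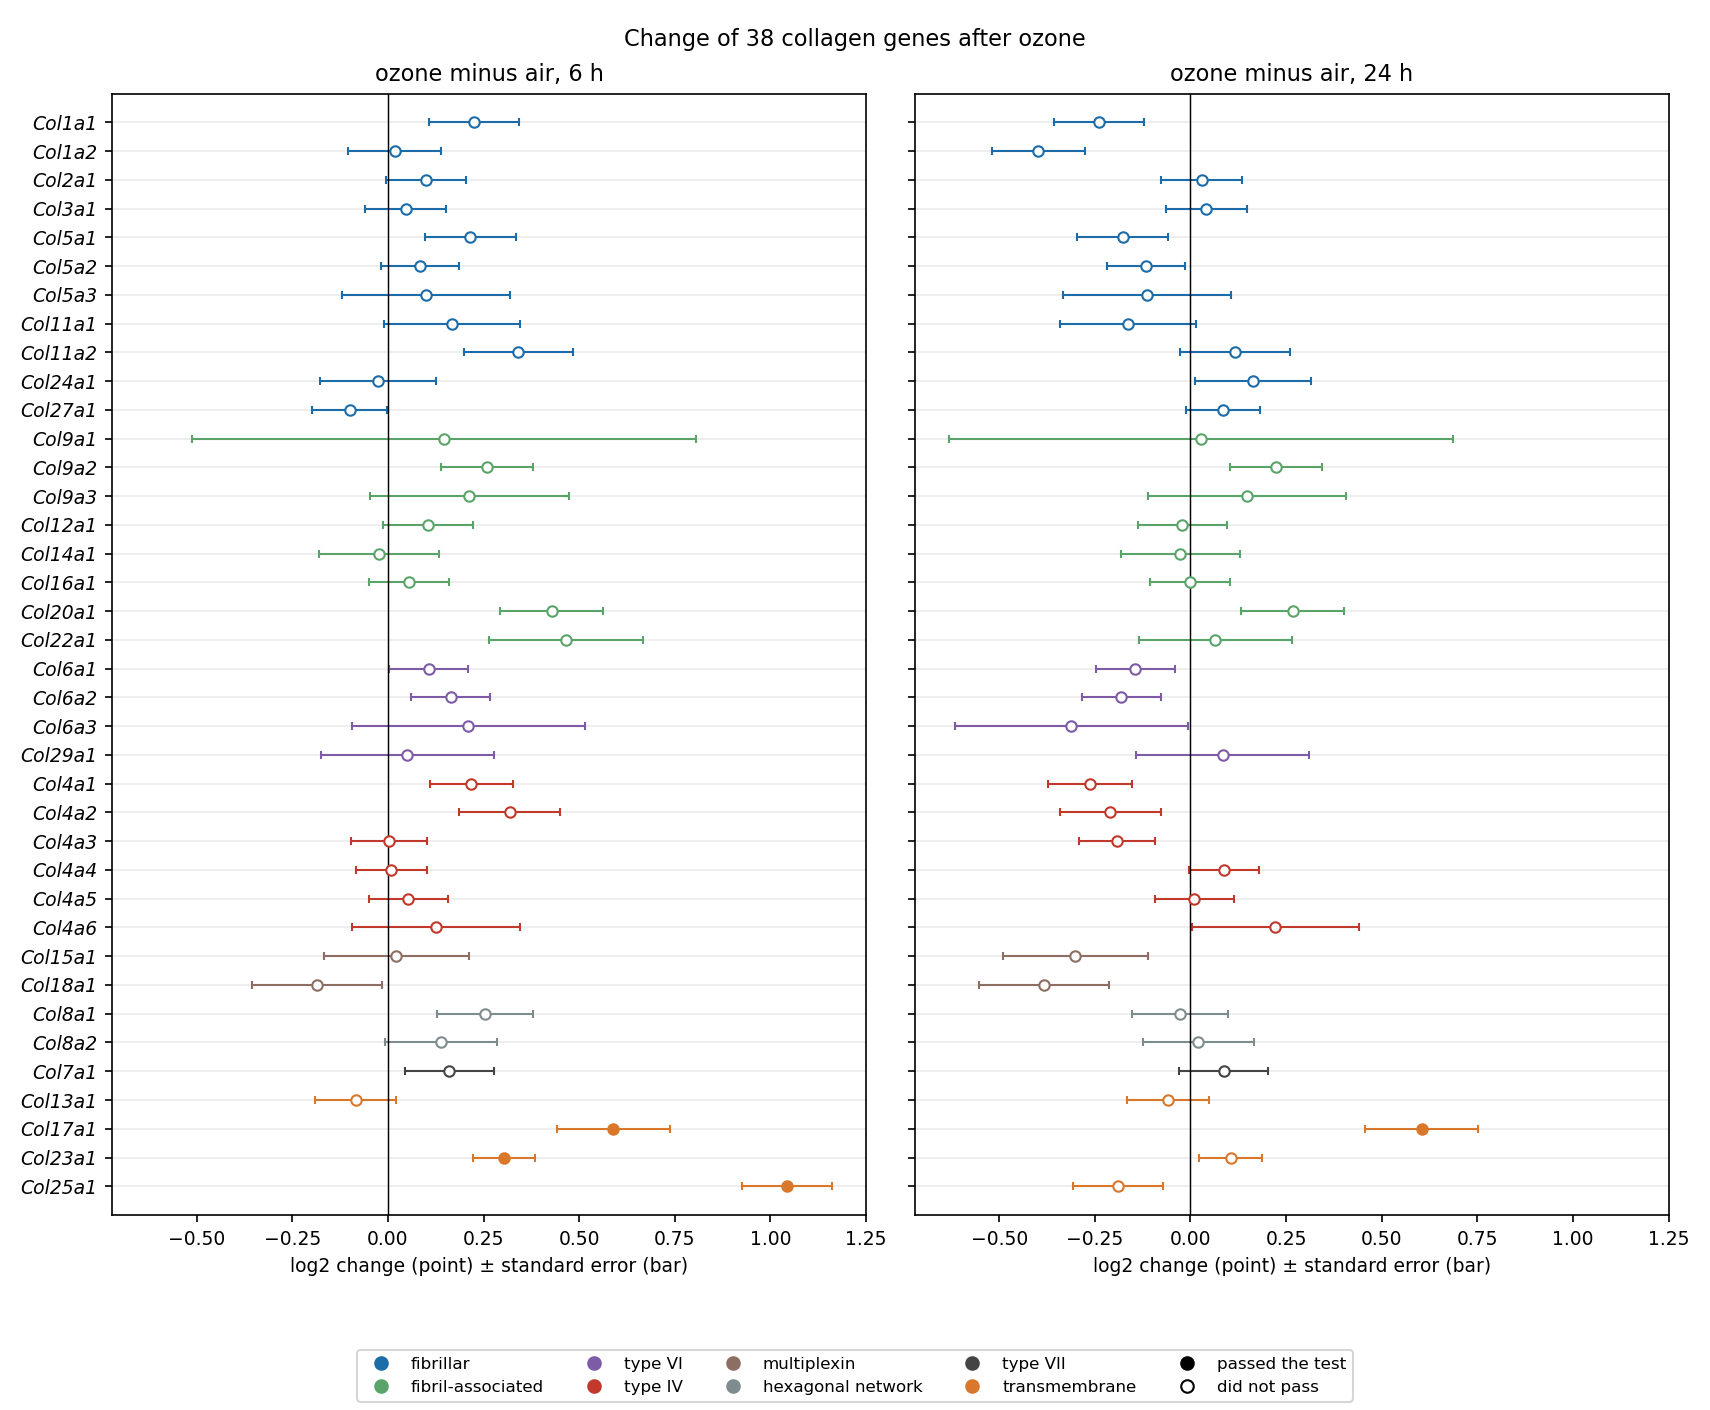
Difference between ozone and air at 6 h (left) and 24 h (right) for the 38 collagen genes, on the log2 scale with SE from limma (4 arrays per group); filled points passed at an adjusted p under 0.05 and colours give the class. Col25a1, Col17a1 and Col23a1 are the filled points at 6 h, and Col17a1 at 24 h.

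For the extracellular classes the 6 h differences were not alike on the 2 slides. Within the slide of replicates 1 and 2, 10 of the 38 collagens had a positive ozone difference, with a median of -0.11, and 0 of 6 type IV chains and 1 of 11 fibrillar genes were positive. Within the slide of replicates 3 and 4, 36 of 38 were positive, with a median of 0.35, among them 6 of 6 type IV chains and 10 of 11 fibrillar genes. The all-gene medians were -0.0038 and 0.11. For Col1a1, the air arrays of 6 h read 5.77 and 5.49 on the first slide and 5.10 and 5.30 on the other. Its ozone arrays read 5.64 and 5.53 against 5.87 and 5.52. For Col2a1 the air arrays read 2.32 and 1.98 against 2.03 and 2.12, and the ozone arrays 2.11 and 1.94 against 2.45 and 2.35. Both genes were picked after their values were seen, and which arrays set the slides apart was not tested. Col25a1 was positive on both slides (0.88 and 1.21), as were Col17a1 (0.49 and 0.69) and Col23a1 (0.18 and 0.42). At 24 h the collagen medians were -0.03 and -0.04 on the 2 slides, beside all-gene medians of 0.073 and -0.0067. The change of the ozone effect from 6 h to 24 h, which rests on these same arrays, had a collagen median of -0.18 with 31 of 38 below 0, against -0.04 for all genes, and of -0.01 with 19 of 38 above 0 under median centring. Without that centring, 11902 of all 21631 genes were below 0.

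**Figure D3:**
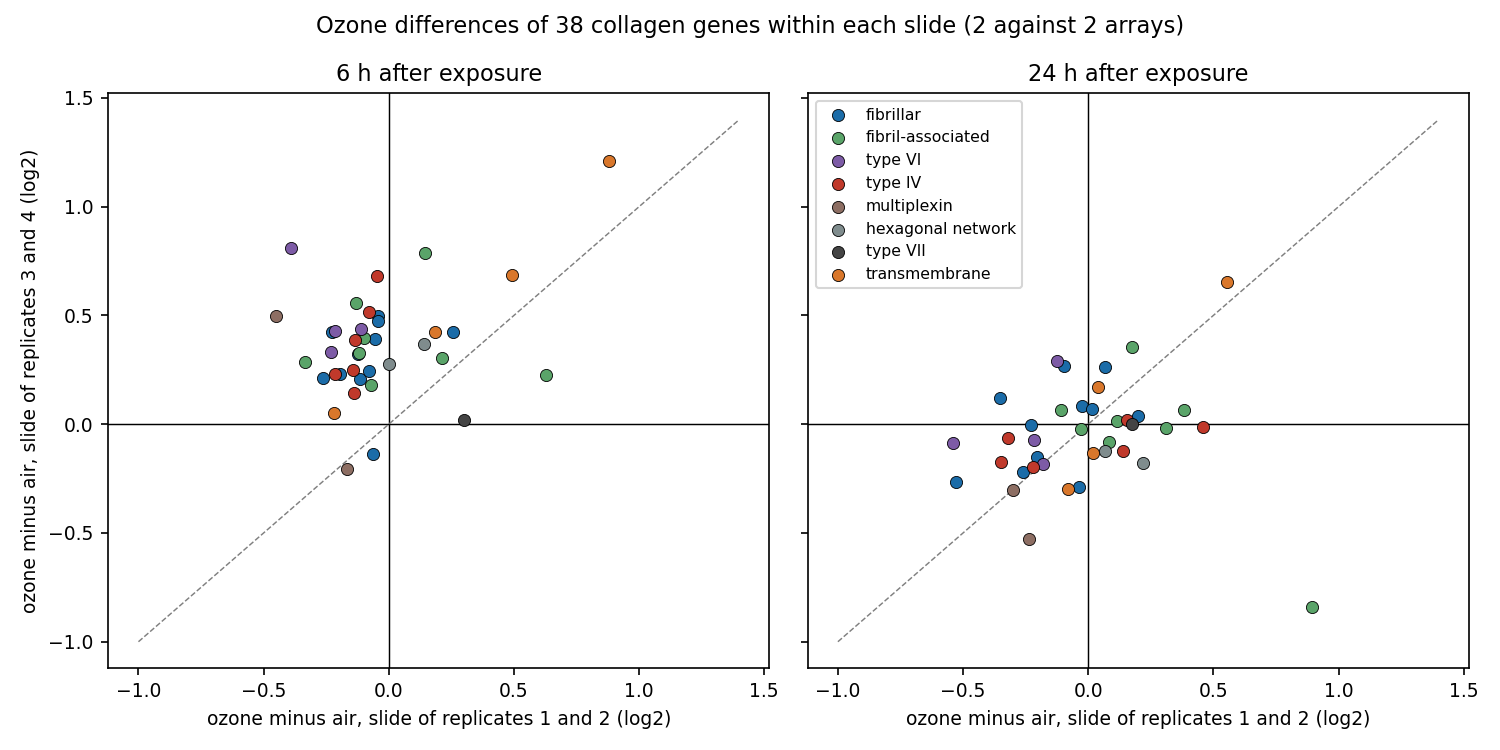
Ozone minus air difference (log2) of each of the 38 collagen genes within the slide of replicates 1 and 2 (horizontal) and within that of replicates 3 and 4 (vertical), at 6 h and 24 h; each value is 2 ozone against 2 air arrays and the dashed line marks equal values. At 6 h, 36 of 38 points lie above 0 on the vertical axis and 10 of 38 above 0 on the horizontal one.

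Of 92 genes that make, trim, bind or regulate collagen, 4 passed at 6 h (4.35%, against 4.48% of all genes) and 1 at 24 h (1.09%, against 2.01%) in limma. At 6 h, 2 of 18 genes of chain modification and folding were lower, the prolyl isomerase Fkbp14 at -0.53 ± 0.11 and the galactosyltransferase Colgalt1 at -0.29 ± 0.07 (limma adjusted p = 0.0163 and 0.0265). Timp4, an inhibitor of matrix metalloproteinases, was higher by 0.58 ± 0.13 (adjusted p = 0.0204), the 1 of 14 genes of collagen breakdown that passed. Itga11, the integrin subunit that binds fibrillar collagen on fibroblasts, was higher by 0.41 ± 0.10 (adjusted p = 0.0320), 1 of 9 receptors. None of 11 processing and cross-linking genes, 12 fibril-binding genes, 16 basement membrane partners or 12 genes of TGF-beta signalling passed at 6 h, where 1, 2, 1 and 2 had an unadjusted p under 0.05. At 24 h the basement membrane gene Nid2 was lower, at -0.39 ± 0.09 (adjusted p = 0.0334), and no other gene of these lists passed in limma. Unadjusted p values under 0.05 at 24 h numbered 5 for modification, 1 for processing, 4 for breakdown, 3 each for receptors, fibril-binding genes and basement membrane partners, and 2 for TGF-beta. Over all 21631 genes they numbered 4540 at 6 h and 2878 at 24 h. Fibroblast, smooth muscle and endothelial markers gave 0 calls at both times in limma, with 3, 1 and 1 unadjusted p under 0.05 at 6 h and 0 each at 24 h. Of 11 proliferation markers, 5 were lower at 6 h and 11 at 24 h (medians -0.37 and -0.93), and their part in the collagen differences was not tested.

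More collagens passed between the air groups than after ozone. Of 38 collagens, 21 were higher and 3 lower in air lungs of 24 h than in those of 6 h, 63.2% in all, where 49.9% of all genes passed. As higher, 55.3% of collagens and 21.4% of all genes passed, and as lower, 7.89% and 28.5%. The all-gene shares are the background for each class below. Air arrays of 24 h lay wholly above those of 6 h for 19 of the 38 collagens and wholly below for 3. Among all genes, 22.5% lay wholly above and 26.4% wholly below, so such separation was common. The collagen median was 0.49, against 0.01 for all genes, and 0.39 to 0.49 under the 4 scalings. Relative to all genes it was 0.48 in this fit and 0.20 with normexp, which moved the all-gene median from 0.01 to 0.20. These 8 arrays are also the controls of the ozone comparisons. Both groups were 3 days old when exposed, and because each time was run as an experiment of its own, age and experiment cannot be told apart. With slide as a random block the same numbers of collagens, 21 and 3, passed. The consensus correlation within slides in that fit was 0.013, so the block carried little weight. Every slide also held arrays of a single time point. The equal numbers therefore cannot decide whether slides affected the collagens.

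**Figure D4:**
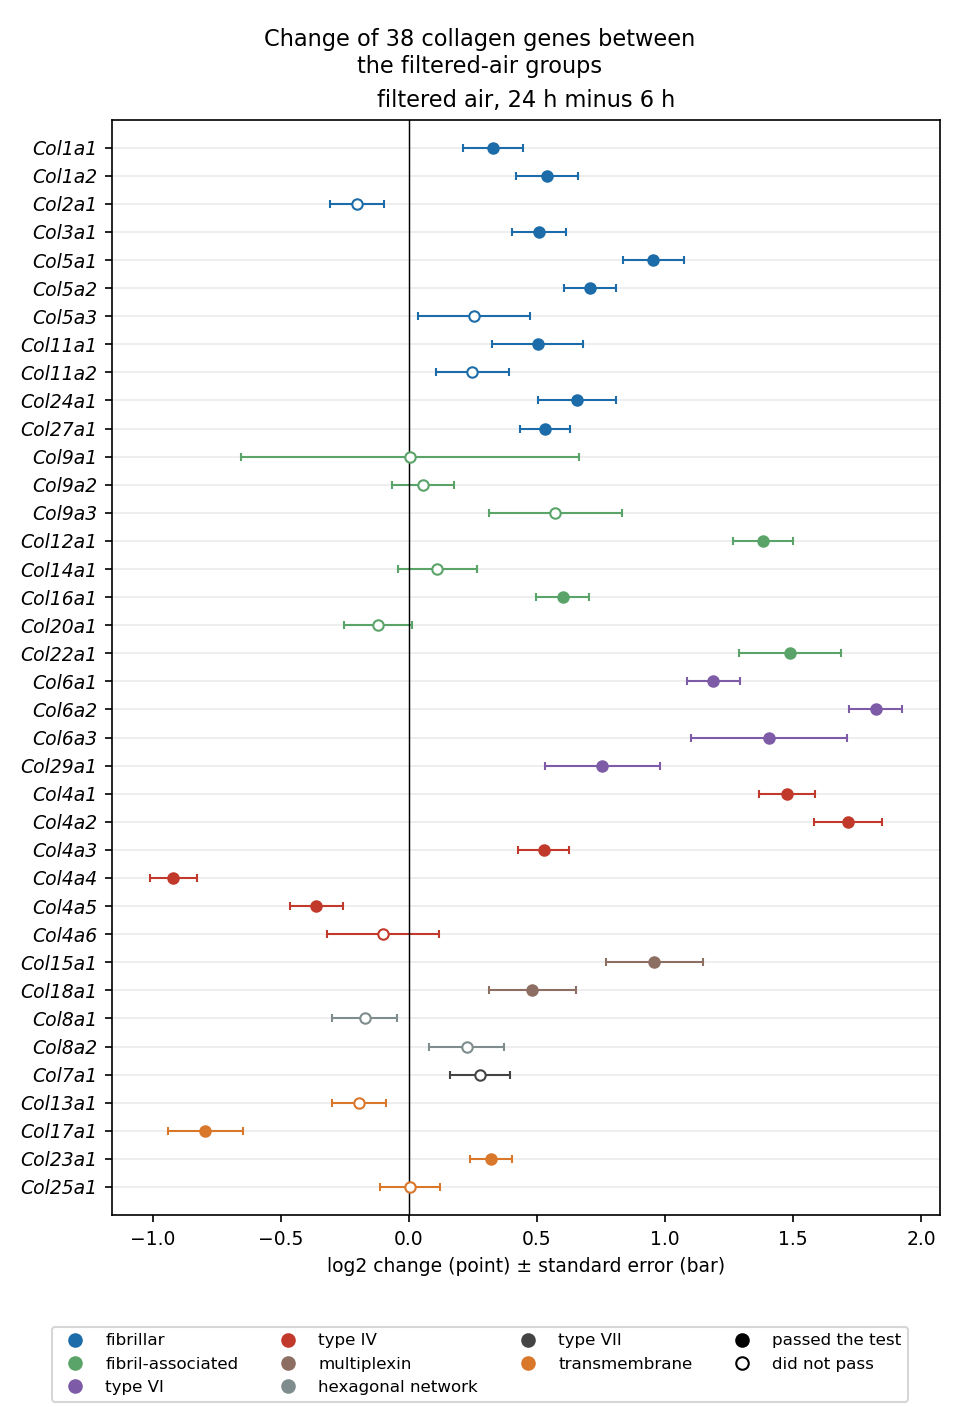
Difference between the air groups, 24 h minus 6 h, for the 38 collagen genes (log2, point) with SE (bar, 4 arrays per group), coloured by class; filled points passed at an adjusted p under 0.05. Col6a1, Col6a2, Col6a3, Col4a1, Col4a2, Col12a1 and Col22a1 lie at 1.19 or more, and Col4a4 and Col17a1 at -0.92 and -0.79.

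Type VI collagen, the beaded filament that links cells to the matrix, had 4 of 4 measured genes higher in limma, with a median of 1.30. Among all genes, 21.4% were higher. The second chain of the common heterotrimer ranked 3 by p among all genes. Col6a2 read -0.07, 0.05, -0.36 and -0.28 on the air arrays of 6 h and 1.63, 1.53, 1.75 and 1.72 on those of 24 h. Col6a2 under ozone read -0.18, -0.07, 0.01 and 0.22 at 6 h and 1.45, 1.36, 1.43 and 1.67 at 24 h. Col6a2 was thus higher in air at 24 h by 1.82 ± 0.10, with each air array of 24 h above each of 6 h (adjusted p = 9.33e-09). The first chain followed. Col6a1 read 1.96, 1.93, 1.54 and 1.57 on the air arrays of 6 h and 2.95, 2.92, 2.94 and 2.95 on those of 24 h. Col6a1 under ozone read 1.63, 1.82, 1.89 and 2.09 at 6 h and 2.65, 2.79, 2.85 and 2.89 at 24 h. Col6a1 was thus higher in air at 24 h by 1.19 ± 0.10, with each air array of 24 h above each of 6 h (adjusted p = 9.95e-08). The third chain of the heterotrimer is the longest. Col6a3 read -4.16, -3.97, -4.17 and -4.43 on the air arrays of 6 h and -2.69, -2.78, -2.97 and -2.67 on those of 24 h. Col6a3 under ozone read -4.48, -4.43, -2.63 and -4.35 at 6 h and -3.42, -3.13, -2.87 and -2.93 at 24 h. Col6a3 was thus higher in air at 24 h by 1.41 ± 0.30, with each air array of 24 h above each of 6 h (adjusted p = 0.000872). Last is the chain now named Col6a5. Col29a1 read -4.32, -4.49, -4.55 and -4.90 on the air arrays of 6 h and -4.14, -3.36, -4.20 and -3.55 on those of 24 h. Col29a1 under ozone read -4.88, -4.39, -4.18 and -4.61 at 6 h and -4.05, -3.70, -3.64 and -3.52 at 24 h. Col29a1 was thus higher in air at 24 h by 0.76 ± 0.23, with each air array of 24 h above each of 6 h (adjusted p = 0.00975). Ozone array 3 of 6 h stands apart from its group for Col6a3. Quantile normalization (0.63) and normexp (0.64) ended the Col29a1 call, and the mean of probes gave 0.92 for Col6a2.

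Of 6 type IV chains, 3 were higher and 2 lower in air at 24 h in limma, where 21.4% and 28.5% of all genes were. Type IV genes lie in head to head pairs, and RefSeq (GRCm38.p6) places the starts of Col4a1 (minus strand) and Col4a2 (plus strand) at 11312826 and 11312805 of chromosome 8. Both chains of the common network were higher. Col4a1 read 3.70, 3.88, 3.34 and 3.53 on the air arrays of 6 h and 5.17, 4.99, 5.04 and 5.15 on those of 24 h. Col4a1 under ozone read 3.61, 3.81, 4.00 and 3.91 at 6 h and 4.69, 4.77, 5.02 and 4.83 at 24 h. Col4a1 was thus higher in air at 24 h by 1.48 ± 0.11, with each air array of 24 h above each of 6 h (adjusted p = 3.12e-08). Its neighbour has the start on the opposite strand. Col4a2 read 3.17, 3.35, 2.67 and 2.93 on the air arrays of 6 h and 4.82, 4.47, 4.85 and 4.84 on those of 24 h. Col4a2 under ozone read 3.10, 3.32, 3.52 and 3.44 at 6 h and 4.42, 4.43, 4.71 and 4.58 at 24 h. Col4a2 was thus higher in air at 24 h by 1.72 ± 0.13, with each air array of 24 h above each of 6 h (adjusted p = 4.43e-08). Second probes gave 1.85 ± 0.15 for Col4a1 and 1.89 ± 0.15 for Col4a2.

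The network of alveolar basement membrane joins the chains of Col4a3, Col4a4 and Col4a5, and these moved in different directions. One member of the second head to head pair went up. Col4a3 read 0.79, 0.88, 0.55 and 0.84 on the air arrays of 6 h and 1.42, 1.38, 1.32 and 1.05 on those of 24 h. Col4a3 under ozone read 0.69, 0.71, 0.70 and 0.98 at 6 h and 0.95, 1.20, 1.06 and 1.18 at 24 h. Col4a3 was thus higher in air at 24 h by 0.53 ± 0.10, with each air array of 24 h above each of 6 h (adjusted p = 0.000241). Its partner went down. Col4a4 read 3.58, 3.37, 3.16 and 3.40 on the air arrays of 6 h and 2.45, 2.36, 2.51 and 2.52 on those of 24 h. Col4a4 under ozone read 3.37, 3.15, 3.61 and 3.40 at 6 h and 2.58, 2.54, 2.51 and 2.55 at 24 h. Col4a4 was thus lower in air at 24 h, at -0.92 ± 0.09, with each air array of 24 h below each of 6 h (adjusted p = 4.03e-07). A second Col4a4 probe gave -0.17 ± 0.07, the mean of probes -0.55, and a second Col4a3 probe 0.34 ± 0.10. The X-linked chain that completes the network was lower as well. Col4a5 read -0.46, -0.57, -0.74 and -0.66 on the air arrays of 6 h and -0.95, -0.95, -0.88 and -1.08 on those of 24 h. Col4a5 under ozone read -0.52, -0.78, -0.39 and -0.51 at 6 h and -0.75, -0.87, -1.10 and -1.11 at 24 h. Col4a5 was thus lower in air at 24 h, at -0.36 ± 0.10, with each air array of 24 h below each of 6 h (adjusted p = 0.00733). Normexp gave -0.24 for Col4a5, which then did not pass. Col4a6, whose start lies 1343 bases from that of Col4a5 on the opposite strand, had group means of -2.00 ± 0.24 and -2.10 ± 0.26 in air (SD, n = 4) and -1.87 ± 0.58 and -1.87 ± 0.15 in ozone, and differed by -0.10 ± 0.22 (adjusted p = 0.732).

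**Figure D5:**
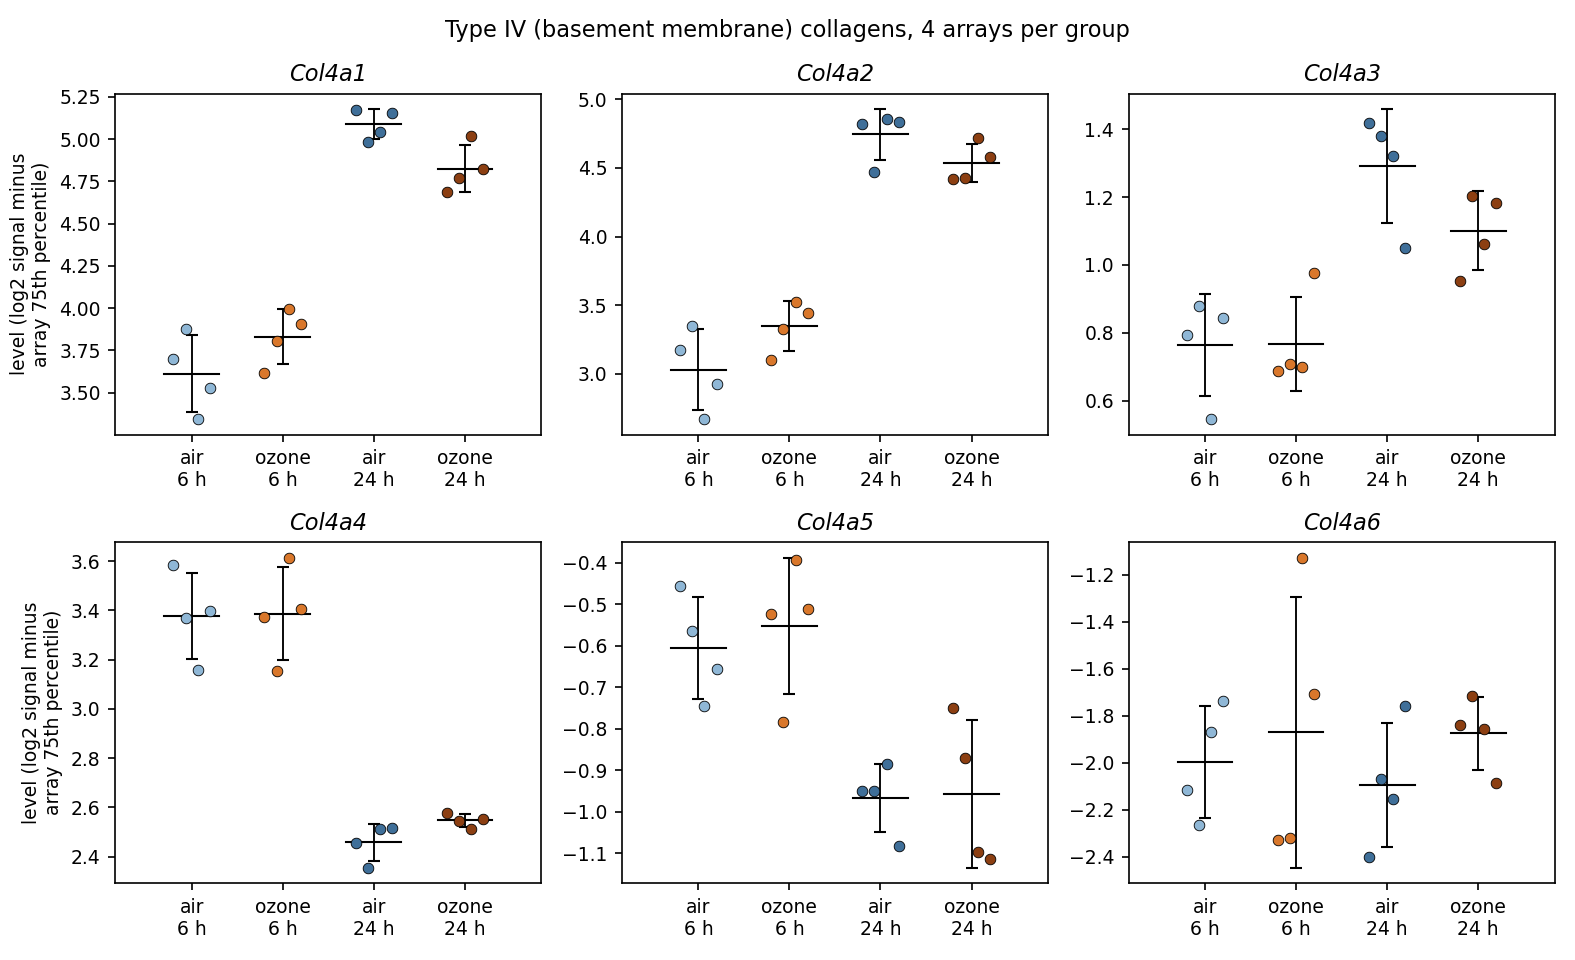
Levels of the 6 type IV collagen genes on each array (points, log2 of the signal minus the array's 75th percentile), with the mean (line) and SD (bar) of 4 arrays; vertical scales differ between panels. Col4a1 and Col4a2 stand higher in both groups of 24 h, Col4a3 less so, and Col4a4 and Col4a5 stand lower.

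Among fibrillar collagens, 8 of 11 were higher in air at 24 h and 0 lower in limma, with a median of 0.51. Among all genes, 21.4% were higher and 28.5% lower. Col5a1 and Col5a2, whose type V chains start type I fibrils, had the 2 largest differences of the class in this fit. Col5a1 read 2.58, 2.28, 1.83 and 2.14 on the air arrays of 6 h and 3.27, 3.07, 3.22 and 3.08 on those of 24 h. Col5a1 under ozone read 2.46, 2.31, 2.63 and 2.28 at 6 h and 3.04, 2.89, 3.04 and 2.96 at 24 h. Col5a1 was thus higher in air at 24 h by 0.95 ± 0.12, with each air array of 24 h above each of 6 h (adjusted p = 3.59e-06). The second type V chain followed. Col5a2 read 2.02, 1.79, 1.45 and 1.76 on the air arrays of 6 h and 2.43, 2.49, 2.53 and 2.39 on those of 24 h. Col5a2 under ozone read 1.73, 1.93, 1.88 and 1.82 at 6 h and 2.12, 2.35, 2.43 and 2.48 at 24 h. Col5a2 was thus higher in air at 24 h by 0.71 ± 0.10, with each air array of 24 h above each of 6 h (adjusted p = 1.59e-05). The arrays of the type I chains are given above. Col1a2 was higher in air at 24 h by 0.54 ± 0.12, with each air array of 24 h above each of 6 h (adjusted p = 0.00129). The other type I chain had overlapping groups. Col1a1 was higher in air at 24 h by 0.33 ± 0.12, with 1 or more arrays of the groups overlapping (adjusted p = 0.0276). Col3a1 had overlapping groups as well. Col3a1 read 5.95, 5.60, 5.36 and 5.44 on the air arrays of 6 h and 6.13, 6.13, 6.20 and 5.92 on those of 24 h. Col3a1 under ozone read 5.74, 5.59, 5.61 and 5.60 at 6 h and 6.19, 6.11, 6.09 and 6.16 at 24 h. Col3a1 was thus higher in air at 24 h by 0.51 ± 0.11, with 1 or more arrays of the groups overlapping (adjusted p = 0.000625). A second Col1a2 probe had the opposite sign (-0.42 ± 0.20), as did 1 of 2 other Col3a1 probes (-0.77 ± 0.42, above background on 9 arrays), and the mean of probes gave 0.06 for Col1a2 and 0.09 for Col3a1, neither of which then passed. Col1a1 did not pass without air array 3 or 4 of 6 h or air array 1, 3 or 4 of 24 h (0.22 to 0.33), nor with median centring (0.22) or normexp (0.25). Quantile normalization gave 0.77 for Col1a1, 1.08 for Col1a2 and 0.98 for Col3a1, and the mean of probes 0.80 for Col1a1.

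The minor fibrillar genes followed the same direction on their main probes. Col24a1 is a marker of bone-forming cells. Col24a1 read -2.43, -2.33, -2.64 and -2.64 on the air arrays of 6 h and -1.72, -1.82, -1.88 and -1.99 on those of 24 h. Col24a1 under ozone read -2.45, -2.83, -2.02 and -2.83 at 6 h and -1.71, -1.70, -1.56 and -1.78 at 24 h. Col24a1 was thus higher in air at 24 h by 0.66 ± 0.15, with each air array of 24 h above each of 6 h (adjusted p = 0.00152). Col27a1 is a collagen of cartilage. Col27a1 read -0.27, -0.13, 0.04 and -0.11 on the air arrays of 6 h and 0.60, 0.38, 0.34 and 0.33 on those of 24 h. Col27a1 under ozone read -0.32, -0.20, -0.01 and -0.34 at 6 h and 0.36, 0.42, 0.71 and 0.49 at 24 h. Col27a1 was thus higher in air at 24 h by 0.53 ± 0.10, with each air array of 24 h above each of 6 h (adjusted p = 0.000200). Col11a1 is shared by cartilage and young connective tissue. Col11a1 read -2.08, -2.75, -2.89 and -2.76 on the air arrays of 6 h and -2.33, -2.15, -1.89 and -2.09 on those of 24 h. Col11a1 under ozone read -2.22, -2.72, -2.10 and -2.76 at 6 h and -2.25, -2.30, -2.29 and -2.27 at 24 h. Col11a1 was thus higher in air at 24 h by 0.50 ± 0.18, with 1 or more arrays of the groups overlapping (adjusted p = 0.0255). The other Col24a1 probe gave -1.32 ± 0.35, so that the mean of probes turned Col24a1 to -0.33, and it gave 0.83 for Col27a1. Col11a1 did not pass without air array 2, 3 or 4 of 6 h or air array 3 or 4 of 24 h (0.41 to 0.50), nor with median centring (0.40). Col2a1 differed by -0.20 ± 0.10, Col5a3 by 0.26 ± 0.22 and Col11a2 by 0.25 ± 0.14, and none of these 3 passed (adjusted p = 0.122, 0.356 and 0.162). In air, Col2a1 averaged 2.11 ± 0.15 at 6 h and 1.91 ± 0.14 at 24 h (SD), Col5a3 -3.04 ± 0.49 and -2.79 ± 0.16, and Col11a2 -3.04 ± 0.10 and -2.80 ± 0.09. In ozone the means were 2.21 ± 0.23 and 1.94 ± 0.07 for Col2a1, -2.94 ± 0.19 and -2.90 ± 0.39 for Col5a3, and -2.70 ± 0.27 and -2.68 ± 0.22 for Col11a2.

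Of 8 fibril-associated collagens, 3 were higher in air at 24 h in limma and 0 lower, with a median of 0.34. Among all genes 49.9% passed, 21.4% as higher and 28.5% as lower, so 3 of 8 is not a high share. Col22a1 is known from muscle-tendon junctions. Col22a1 read -2.91, -3.08, -3.75 and -3.34 on the air arrays of 6 h and -1.74, -1.68, -1.69 and -2.02 on those of 24 h. Col22a1 under ozone read -2.72, -2.98, -2.37 and -3.15 at 6 h and -1.24, -1.95, -1.87 and -1.81 at 24 h. Col22a1 was thus higher in air at 24 h by 1.49 ± 0.20, with each air array of 24 h above each of 6 h (adjusted p = 8.43e-06). Col12a1 coats type I fibrils under load. Col12a1 read -1.72, -1.85, -2.22 and -1.97 on the air arrays of 6 h and -0.45, -0.47, -0.43 and -0.89 on those of 24 h. Col12a1 under ozone read -1.86, -1.95, -1.75 and -1.78 at 6 h and -0.48, -0.65, -0.65 and -0.54 at 24 h. Col12a1 was thus higher in air at 24 h by 1.38 ± 0.12, with each air array of 24 h above each of 6 h (adjusted p = 7.77e-08). Col16a1 occurs at the edges of fibrillar networks. Col16a1 read 3.86, 3.62, 3.50 and 3.55 on the air arrays of 6 h and 4.15, 4.09, 4.51 and 4.17 on those of 24 h. Col16a1 under ozone read 3.77, 3.57, 3.83 and 3.58 at 6 h and 4.37, 4.04, 4.25 and 4.26 at 24 h. Col16a1 was thus higher in air at 24 h by 0.60 ± 0.10, with each air array of 24 h above each of 6 h (adjusted p = 0.000118). The multiplexins were both higher. Col15a1 sits where basement membrane meets fibrils. Col15a1 read -2.56, -2.81, -3.32 and -3.13 on the air arrays of 6 h and -1.73, -2.14, -2.09 and -2.03 on those of 24 h. Col15a1 under ozone read -3.21, -3.07, -2.32 and -3.13 at 6 h and -2.30, -2.17, -2.30 and -2.42 at 24 h. Col15a1 was thus higher in air at 24 h by 0.96 ± 0.19, with each air array of 24 h above each of 6 h (adjusted p = 0.000394). Col18a1 is the source of endostatin. Col18a1 read 3.26, 3.07, 2.66 and 2.98 on the air arrays of 6 h and 3.48, 3.24, 3.60 and 3.57 on those of 24 h. Col18a1 under ozone read 3.07, 2.93, 2.13 and 3.09 at 6 h and 3.18, 3.07, 3.04 and 3.07 at 24 h. Col18a1 was thus higher in air at 24 h by 0.48 ± 0.17, with 1 or more arrays of the groups overlapping (adjusted p = 0.0247). Col18a1 did not pass without air array 3 of 6 h or air array 3 or 4 of 24 h (0.37 to 0.45), nor with median centring (0.38). The mean of probes gave 0.92 for Col16a1.

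Transmembrane collagens went in both directions between the air groups, with a median of -0.09. On the arrays listed above, Col17a1 was lower at 24 h than at 6 h, at -0.79 ± 0.15 (limma adjusted p = 0.000227), with every air array of 24 h below those of 6 h. Its second probe gave 0.14 ± 0.24, and the call was lost with normexp (-0.23) and the mean of probes (-0.33). Col23a1 was higher by 0.32 ± 0.08 (adjusted p = 0.00346), with no overlap, though not with median centring (0.22), and the mean of probes gave 0.80. Col25a1 differed by 0.00 ± 0.12 (adjusted p = 0.981), with a 95% interval of -0.24 to 0.25. Col13a1 differed by -0.19 ± 0.11 (adjusted p = 0.143), and its second probe by 1.35 ± 0.15, so the mean of probes reversed it to 0.58. Col7a1, Col8a1 and Col8a2 did not pass.

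Of the 92 genes that make, trim, bind or regulate collagen, 63 passed between the air groups in limma (68.5%). Among all genes 49.9% passed, 21.4% as higher and 28.5% as lower, which is the background for each list below. Of 18 genes that fold and modify collagen chains, 12 were higher in air at 24 h and 1 lower. The smallest p values were those of Plod3 (1.09 ± 0.08) and Plod1 (1.27 ± 0.14), lysyl hydroxylases, and P3h1 (1.26 ± 0.11) and P3h3 (0.76 ± 0.08), prolyl 3-hydroxylases. The 1 that was lower was the cyclophilin Ppib, at -0.50 ± 0.09. Of 11 processing and cross-linking genes, 5 were higher and 1 lower. They included the lysyl oxidase relatives Loxl2 (1.28 ± 0.11) and Loxl1 (0.75 ± 0.09), and the procollagen proteases Adamts2 (0.63 ± 0.11) and Bmp1 (0.44 ± 0.10). Pcolce2, an enhancer of procollagen cleavage, was lower, at -0.35 ± 0.09. Adjusted p values of the genes named here ran from 2.18e-08 to 0.00489.

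Breakdown genes gave 3 higher and 2 lower of 14, where 21.4% and 28.5% of all genes passed. Mmp2, the type IV collagenase, was higher by 1.68 ± 0.10 and the collagen uptake receptor Mrc2 by 0.94 ± 0.08. The inhibitor Timp1 was lower, at -0.39 ± 0.10, as was the neutrophil collagenase Mmp8, at -0.48 ± 0.15. Of 9 receptors, 2 were higher, Ddr2 (0.41 ± 0.08) and Itga1 (0.61 ± 0.13), and 3 lower, among them the leukocyte receptor Lair1 (-1.12 ± 0.18) and the platelet receptor Gp6 (-0.99 ± 0.18). Adjusted p values here, from limma, ran from 9.33e-09 to 0.0117.

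Among fibril-binding genes 9 of 12 were higher and 3 lower, with a median of 1.06. Thbs1 (1.38 ± 0.10), Fn1 (1.42 ± 0.11), Tgfbi (1.43 ± 0.13) and Bgn (1.80 ± 0.17), which encode thrombospondin 1, fibronectin, a collagen-binding adhesion protein and biglycan, had the smallest p values. Lum (-1.59 ± 0.32), Dcn (-1.17 ± 0.27) and Postn (-0.41 ± 0.09), for lumican, decorin and periostin, were lower. Basement membrane partners gave 12 higher of 16 and 0 lower. Leading among them were Lamb2 (1.11 ± 0.09), Lama2 (1.26 ± 0.11) and Lama3 (0.81 ± 0.08), laminin chains, and Pxdn (1.29 ± 0.10), the peroxidase that cross-links type IV collagen. In TGF-beta signalling 9 of 12 were higher, led by Ltbp2 (1.69 ± 0.16), Ltbp1 (1.07 ± 0.10), Smad3 (0.97 ± 0.10) and Tgfb1 (0.87 ± 0.10), and the receptor gene Tgfbr1 was lower (-0.59 ± 0.08). Limma adjusted p values of the genes named here ran from 3.26e-08 to 0.00163.

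Most markers of matrix-making and vascular cells were higher in air at 24 h, as were most collagens. Among all genes, 21.4% passed as higher and 28.5% as lower. Of 10 fibroblast markers, 6 were higher and 2 lower. The log2 of their summed signal was 7.38 to 7.78 in air and 7.34 to 7.73 in ozone at 6 h, and 7.82 to 8.16 in air and 7.71 to 8.18 in ozone at 24 h. Of 7 smooth muscle markers, 5 were higher and 1 lower, led by Myh11 (2.15 ± 0.14, limma adjusted p = 1.54e-08), with summed levels of 6.84 to 7.54 in air and 6.75 to 7.14 in ozone at 6 h, and 7.41 to 7.51 in air and 7.36 to 7.42 in ozone at 24 h. Endothelial markers gave 5 higher and 1 lower of 7, with sums of 6.41 to 6.67 in air and 6.51 to 6.68 in ozone at 6 h, and 6.74 to 6.94 in air and 6.73 to 6.90 in ozone at 24 h. Of 5 mesothelial markers, 2 were lower (Msln -1.20 ± 0.14, Wt1 -0.78 ± 0.30), with sums of 5.10 to 5.83 in air and 5.64 to 5.94 in ozone at 6 h, and 4.13 to 4.63 in air and 4.44 to 4.68 in ozone at 24 h. Proliferation markers gave 8 higher and 1 lower of 11, with sums of 5.81 to 6.06 in air and 5.26 to 5.46 in ozone at 6 h, and 5.94 to 6.04 in air and 5.15 to 5.50 in ozone at 24 h. Each sum leans on its brightest probes, such as Mfap4 for fibroblasts and Msln for mesothelium, and is not a measure of cell number. The part of these cells in the collagen differences was not tested. Of the genes outside the family, Krt14, Krt5, Trp63, Myh8, Mfap4, Ppib, Pcolce2, Lum, Dcn, Postn and Tgfbr1 were named after their values were seen.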

How the data were processed

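The files hold single-colour (Cy3) Agilent scanner output of 16 arrays, labelled from oligo(dT)-primed RNA per the labels' protocols. Intensity is the processed signal that Agilent Feature Extraction 10.7.1.1 wrote per the file headers, deposited with its flags for background and saturation. The authors' deposited table of log2 values served only as an alternative, since its time points were normalized apart; its background correction is unknown.

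Here, log2 of the processed signal minus each array's 75th percentile was used. Genes were tested on their brightest probe above background on at least 4 of 16 arrays; 157 probes with uneven spots were dropped. Models were fitted over all 4 groups with limma 3.58.1 in R 4.3.3, with Benjamini-Hochberg adjustment over 21631 genes. The code was tested on simulated data. The number of arrays limits the precision; p-values cover the spread between mice.

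Members and lists were chosen with earlier results of these data known. Named with every array's value is each collagen past the threshold in any comparison; fibrillar, type IV and transmembrane genes are given whatever their p, and up to 4 passing genes with the smallest p of each other list. Deviations of arrays with equal replicate numbers correlated at -0.007 to 0.195, so the numbers were not taken as pairs. Alternatives were other scalings, background correction, filters, probe averaging, variance models, slide and replicate blocks, Xist as a covariate, single time points, the authors' table, and each array left out.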

Additional observations from a re-analysis of the deposited data

Results flagged for a closer look

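Within a group of 4 arrays, 1 array stood far from the other 3 in 9 of 120 groups checked, where chance flags about 1 in 20. Ozone array 3 of 6 h, the array with the most probes above background, did so for Col6a3 (-2.63, the next array at -4.35), Col15a1 (-2.32, next -3.07) and Col18a1 (2.13, next 2.93). Air array 1 of 6 h did so for Col11a1 (-2.08, next -2.75) and Col5a3 (-2.31, next -3.25). The rest were Col3a1 on ozone array 1 of 6 h (5.74, next 5.61), Col4a3 on ozone array 4 of 6 h (0.98, next 0.71), Col12a1 on air array 4 of 24 h (-0.89, next -0.47) and Col4a2 on air array 2 of 24 h (4.47, next 4.82). These are log2 levels relative to the 75th percentile, and what set them apart was not tested.

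The ozone effect on Col25a1 differed between the time points, with a change of -1.23 ± 0.17 from 6 h to 24 h (limma adjusted p = 0.0217). All 4 ozone arrays of 6 h lay above the air arrays of 6 h, and at 24 h the groups overlapped. Time and experiment cannot be told apart in this change. Its call was lost with median centring, the mean of probes or the replicate number as a block. It was also lost without air array 4 of 6 h, ozone array 2 of 24 h or air array 1 of 24 h.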

How the results depend on the processing

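Collagens passing at 6 h numbered 3, and 1 with median centring, normexp, the mean of probes, no variance trend, only the arrays of the time point, an Xist covariate or within the slide of replicates 1 and 2, against 6 within that of replicates 3 and 4. Where 1 was left it was Col25a1, except with the mean of probes, where it was Col17a1. At 24 h the 1 call became 0 with median centring, quantile normalization, normexp, no filter on dim probes, the mean of probes, no trend, the Xist covariate, the authors' deposited table and within each slide, 4 with array weights and 2 with only the arrays of the time point. The 1 change of effect became 0 with median centring and the mean of probes. The mean of probes reversed Col13a1 (0.58) and Col24a1 (-0.33) between the air groups and moved the transmembrane median of 24 h to -0.12. Within slides, the 6 h medians were -0.078 and 0.32 for fibrillar and -0.14 and 0.32 for type IV collagens, and the fibrillar median of 24 h was 0.036 on the slide of replicates 3 and 4. The causes of these changes were not tested.

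Leaving out each array in turn gave 1 to 3 collagens at 6 h, 0 to 1 at 24 h, 0 to 1 for the change of effect and 21 to 26 between air groups; fibrillar medians of 24 h ran from -0.16 to 0.0073. Over all genes these ranges were 196 to 1687, 263 to 530, 0 to 263 and 9927 to 11810. Replicate numbers as a block, though not taken as pairs since 5 of 8 numbers did not have the best correlation with their own, left 0 collagens for the change of effect and ended the Col23a1 call; over all genes it gave 247, 261 and 1 calls against 968, 435 and 14.

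Other all-gene counts over 1.5 times from these were, at 6 h, 546 with no trend, 1814 with array weights, 100 with only the arrays of the time point, 558 with Xist and 53 within the slide of replicates 1 and 2. At 24 h they were 256 with median centring, 654 with normexp, 1738 with array weights, 245 with Xist, and 47 and 255 within slides. For the change of effect they were 1 with median centring, 37 with quantile normalization, 547 with normexp, 4 with no trend, 441 with array weights and 6 with slide as a block.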
